A study of Homo sapiens with 27 samples.

Results

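The E2F transcription factors and the retinoblastoma (RB) proteins were followed through matrine treatment of U937 cells by RNA-seq. The members were taken as a list of 10 gene symbols, E2F1, E2F2, E2F3, E2F4, E2F5, E2F7, E2F8, RB1, RBL1 and RBL2, and were found among the 57905 gene identifiers of the deposited table through GENCODE. U937 is a human myelomonocytic leukemia line, and matrine is an alkaloid of the plant Sophora flavescens. The 9 libraries fell into 3 groups of 3, namely control cells and cells given matrine (0.8 mg/ml) over 30 min or over 24 h. The medium and serum were common to the groups, the methods name water as the vehicle of matrine, and the culture time of the controls is not given in the sources used here, so 24 h of matrine cannot be told apart from time in culture. HL-60 and K562 cells are not analysed here. The labels do not say whether the libraries of a group came from separate cultures, so the p-values measure only the spread between these libraries.

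Totals ranged from 17314931 to 21930018 counts per library. Of 12 markers of the myelomonocytic line, 10 had a mean FPKM (fragments per kilobase of gene length, scaled to the counts of the library) above 1, while MPO and CD68 did not. Of 12 markers of other cells, 6 had no count in any library. The summed level of the first list was 2040 to 2368 FPKM in the control, 2153 to 2269 after 30 min and 2374 to 2507 after 24 h. Single markers of it moved apart from control to 24 h. Mean levels went from 885 to 1378 FPKM for ELANE, from 205 to 357 for AZU1 and from 9.59 to 21.5 for CSF3R. CD4 went from 28.6 to 43.7 FPKM, ITGAM from 1.28 to 3.15 and MPO from 0.313 to 1.84. FCGR1A went from 3.12 to 3.74 FPKM and CD68 from 0.557 to 0.72. Lower at 24 h were PRTN3 (646 to 300.4 FPKM), LYZ (292 to 244), SPI1 (67.6 to 56.0) and CD33 (14.7 to 14.5). The part of these markers in the results below was not tested. The summed level of the second list was 4.13 to 5.66 FPKM in the control, 4.47 to 5.68 after 30 min and 4.23 to 4.59 after 24 h. The MYC mRNA, the gene the study is about, differed from control by -1.93 on the log2 scale at 30 min and -2.29 at 24 h.

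E2F factors bind DNA as dimers with DP proteins at the promoters of genes needed for DNA synthesis and division. E2F1, E2F2 and E2F3 are known as activators, E2F4 and E2F5 as repressors that work with pocket proteins, and E2F7 and E2F8 as atypical repressors that bind DNA without a DP partner. The pocket proteins pRB (from RB1), p107 (from RBL1) and p130 (from RBL2) hold E2F factors in check until cyclin-dependent kinases phosphorylate them, and p107 or p130 with E2F4 and the MuvB proteins form the DREAM complex, which silences cell cycle genes in resting cells.

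Several members are themselves known targets of E2F, so the promoters of those that carry an E2F site are shown. RefSeq promoter windows (build GRCh38.p14, 250 bases before to 50 bases after a start site) were matched for 8 of the 10 members. E2F5 and E2F8 had none, and that of RB1 lies within the gene. An E2F site was searched on both strands as TTTCCCGC or TTTGGCGC or TTTGCCGC or TTTCGCGC. It was present in a window of 4 of the 8 members, E2F1, E2F2, E2F3 and RBL1, and in 3.31% of all 35116 windows. A gene was counted if any of its windows held the motif, while the percentages count single windows, so these are unlike units. E2F3 and RBL2 had more than a single window. The same holds for the other motif counts below. The 250 bases before the start site follow, 5′ to 3′ on the strand of the gene, with the E2F sites in capitals. Those of E2F1 lie at chr20:33686386-33686635 (minus strand), of E2F2 at chr1:23531234-23531483 (minus), of E2F3 at chr6:20401629-20401878 (plus) and of RBL1 at chr20:37095998-37096247 (minus).
E2F1: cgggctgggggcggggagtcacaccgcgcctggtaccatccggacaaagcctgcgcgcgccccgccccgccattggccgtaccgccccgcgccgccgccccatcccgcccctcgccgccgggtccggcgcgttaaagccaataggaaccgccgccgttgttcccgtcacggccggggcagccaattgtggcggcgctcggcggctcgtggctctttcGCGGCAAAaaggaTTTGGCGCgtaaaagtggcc
E2F2: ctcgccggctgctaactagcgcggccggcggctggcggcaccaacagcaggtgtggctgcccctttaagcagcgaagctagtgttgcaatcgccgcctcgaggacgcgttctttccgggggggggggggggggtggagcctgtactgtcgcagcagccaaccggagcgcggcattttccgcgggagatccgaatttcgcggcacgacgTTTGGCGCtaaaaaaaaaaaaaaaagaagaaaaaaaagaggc
E2F3: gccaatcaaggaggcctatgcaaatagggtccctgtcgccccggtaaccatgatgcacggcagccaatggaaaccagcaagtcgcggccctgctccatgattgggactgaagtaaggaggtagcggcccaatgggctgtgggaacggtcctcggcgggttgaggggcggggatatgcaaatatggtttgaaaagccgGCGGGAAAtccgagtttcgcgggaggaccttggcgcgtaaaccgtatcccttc
RBL1: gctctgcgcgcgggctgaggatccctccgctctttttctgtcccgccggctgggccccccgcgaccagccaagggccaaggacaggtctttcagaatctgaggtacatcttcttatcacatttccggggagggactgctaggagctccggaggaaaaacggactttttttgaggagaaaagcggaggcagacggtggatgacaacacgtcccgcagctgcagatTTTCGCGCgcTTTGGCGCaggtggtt
E2F1 had a site from -33 to -26 and another from -20 to -13, counted from the start site, and RBL1 had its pair from -26 to -19 and from -16 to -9. E2F2 had a single site from -42 to -35 and E2F3 one from -53 to -46. The E-box CACGTG, the sequence bound by c-Myc with MAX, was in a window of 1 of the 8 members, a second E2F3 window, against 7.26% of all windows. The CHR element TTTGAA, through which MuvB complexes bind, was in windows of E2F3 and RBL2, that is 2 of 8 members, against 15.2% of all windows. These are matches of letters and not measured binding. Of the 4 members with an E2F site, E2F2 rose and RBL1 fell at 24 h, as given below, and E2F1 and E2F3 did not pass the test.

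In control cells E2F4 had the highest level of the family, 41.5 ± 1.13 FPKM (SD, n = 3). It was followed by E2F1 (21.9 ± 2.21 FPKM), E2F8 (19.95 ± 1.61) and RB1 (17.6 ± 2.47), whose neighbouring ranges overlapped. RBL1 (14.1 ± 0.717 FPKM) and E2F3 (13.2 ± 0.572) overlapped each other, as did RBL2 (9.18 ± 1.17) and E2F2 (7.60 ± 0.705). E2F5 was lowest of the detected members at 1.9 ± 0.151 FPKM. E2F7 had 0 counts in each of the 9 libraries, as did its near neighbours SYT1 and PAWR. NAV3, between E2F7 and SYT1, had 0 to 13 counts per library, and CSRP2, on the other side of E2F7, had 1 to 5. Whether the line carries this stretch was not tested. For counting error alone, a limit of 3 counts corresponds to 0.137 to 0.173 CPM (counts scaled to the library total) across the libraries.

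The order changed at 24 h. E2F4 was still highest at 33.2 ± 1.11 FPKM (n = 3), followed without overlap by E2F8 at 28.25 ± 0.763, E2F1 at 22.3 ± 0.838 and RB1 at 18.9 ± 0.225. RBL2 (13.1 ± 1.00 FPKM), E2F3 (12.5 ± 0.572), E2F2 (12.4 ± 0.385) and RBL1 (12.0 ± 0.873) then lay close together, and each overlapped the next. By mean FPKM E2F8 passed E2F1, and RBL2 passed RBL1 and E2F3. Such an order depends on the gene length used for FPKM. By CPM, E2F8 was already above E2F1 in the control libraries (74.9 to 87.0 against 49.9 to 60.8). RBL2 was below RBL1 there by CPM too (59.0 to 75.5 against 79.3 to 87.6). The plot of FPKM by library shows these levels.

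**Figure D1:**
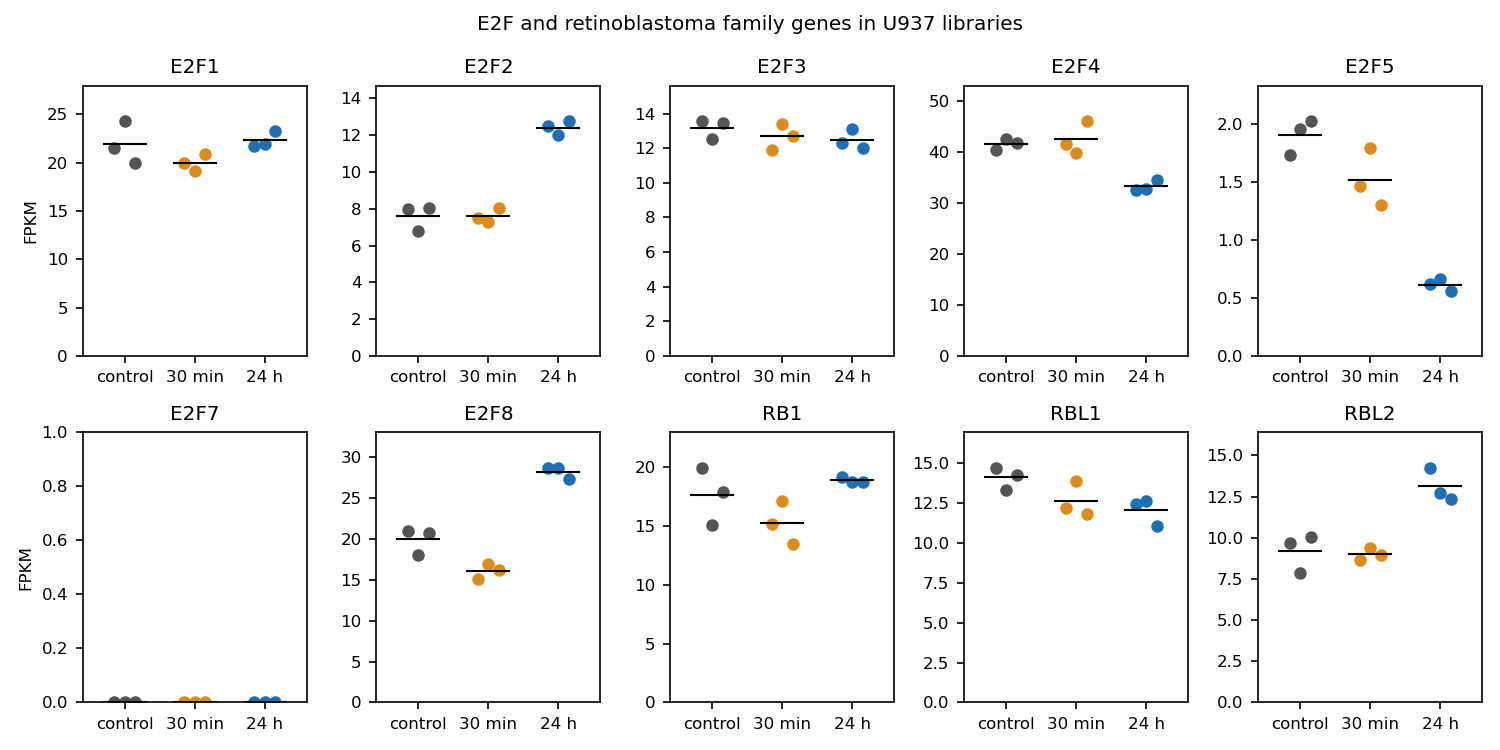
FPKM of each member in each U937 library, by group (control, matrine 30 min, matrine 24 h); points are single libraries and bars are the means of 3. E2F2, E2F8 and RBL2 sit above the control libraries at 24 h, E2F4, E2F5 and RBL1 below them, and E2F7 is at 0 throughout.

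Tests used the deposited counts, and the genes tested were those averaging more than 1 FPKM in the 6 libraries compared. "Rose" and "fell" mark an adjusted p below 0.05 by the quasi-likelihood test of edgeR, adjusted over all genes tested by the Benjamini-Hochberg method, and "called" further requires a fold change of at least 1.5. The 30 min and 24 h comparisons share the same 3 control libraries. Of the 10 members, 9 were tested in each comparison and E2F7 was not. E2F5 passed the filter only through the control and 30 min libraries, since its 24 h libraries were all below 1 FPKM.

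After 24 h, 3 of 9 members rose (E2F2, E2F8, RBL2) against 31.5% of all genes tested, and 3 fell (E2F4, E2F5, RBL1) against 31.8%. Called were 1 higher member (E2F2), against 15.1% of all genes, and 1 lower member (E2F5), against 11.2%. These shares were near the background, so the family did not stand apart by the number of its members that moved. Its median log2 difference was -0.02, against 0.01 over all genes. In bulk RNA, fewer cells of a kind and less RNA per cell cannot be told apart, so a change in the share of cells in a cell cycle phase cannot be separated from a change within cells in any value below.

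Among the activators, E2F2 was the member that moved. It is an E2F known from blood cell proliferation. E2F2 measured 7.98, 6.79 and 8.04 FPKM in the control and 12.49, 12.0 and 12.76 FPKM at 24 h. The 24 h libraries were all above the controls, with a gap wider than the range of either group. The rise was 1.58-fold (log2 0.66, SE 0.07, edgeR adjusted p 1.2e-07). Its call depends on control replicate 2, the lowest library, since without it the log2 difference was 0.57, under the 1.5-fold limit of 0.58.

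E2F1, the first member described and a regulator of both S phase entry and apoptosis, measured 21.52, 24.3 and 19.94 FPKM in the control and 21.72, 21.97 and 23.28 FPKM at 24 h. The groups overlapped. The log2 difference was -0.02, with a 95% interval of -0.19 to 0.14 (edgeR adjusted p 0.815). E2F3, which is also needed for S phase entry, measured 13.56, 12.51 and 13.43 FPKM in the control and 12.3, 13.12 and 12.02 FPKM at 24 h, also with overlap. Its log2 difference was -0.12 (interval -0.26 to 0.01, edgeR adjusted p 0.108), and the adjusted p was 0.040 with no FPKM filter and 0.043 without control replicate 2. The sum of the 3 activators was 42.7 ± 1.14 FPKM in the control and 47.2 ± 0.783 FPKM at 24 h (n = 3).

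The repressors E2F4 and E2F5 both fell. E2F5 measured 1.73, 1.95 and 2.02 FPKM in the control and 0.62, 0.66 and 0.56 FPKM at 24 h, which are 207 to 224 counts per library against 73 to 80. Every 24 h library was below every control library. The log2 difference was -1.67 (SE 0.15, edgeR adjusted p 3.2e-09), a level of 0.315 times the control, and it was the largest difference among the members. It was -0.85 with limma on log2(FPKM + 1), where the pseudocount compresses so low a level.

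E2F4, the main E2F of resting cells and of the DREAM complex, measured 40.25, 42.47 and 41.76 FPKM in the control and 32.46, 32.69 and 34.49 FPKM at 24 h. These groups did not overlap either. The log2 difference was -0.37 (SE 0.06, edgeR adjusted p 3.4e-05), under the fold change limit. The sum of E2F4 and E2F5 was 43.4 ± 1.27 FPKM in the control and 33.8 ± 1.07 FPKM at 24 h (n = 3), and the ratio of E2F4 to E2F5 was 21.9 ± 1.30 and 54.5 ± 6.31.

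The atypical repressor E2F8 rose. It measured 21.02, 18.1 and 20.73 FPKM in the control and 28.73, 28.65 and 27.37 FPKM at 24 h, and the groups did not overlap. The log2 difference was 0.45 (SE 0.06, edgeR adjusted p 3.3e-06). E2F7, its close relative, had no counts with which to compare.

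Of the pocket protein genes, 1 rose, 1 fell and 1 did not pass the test. RBL2, which codes for p130 of resting cells, measured 9.66, 7.84 and 10.03 FPKM in the control and 14.25, 12.73 and 12.36 FPKM at 24 h. Each treated library was above each control library, and the log2 difference was 0.47 (SE 0.08, edgeR adjusted p 2.2e-05). RBL1, which codes for p107 of dividing cells, measured 14.71, 13.31 and 14.28 FPKM in the control and 12.45, 12.62 and 11.03 FPKM at 24 h. Here the treated libraries were all lower, with a log2 difference of -0.28 (SE 0.07, edgeR adjusted p 0.0020). RB1, the tumour suppressor of retinoblastoma, measured 19.96, 15.05 and 17.91 FPKM in the control and 19.14, 18.74 and 18.76 FPKM at 24 h. The groups overlapped, and the log2 difference was 0.05 with an interval of -0.12 to 0.23 (edgeR adjusted p 0.614).

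**Figure D2:**
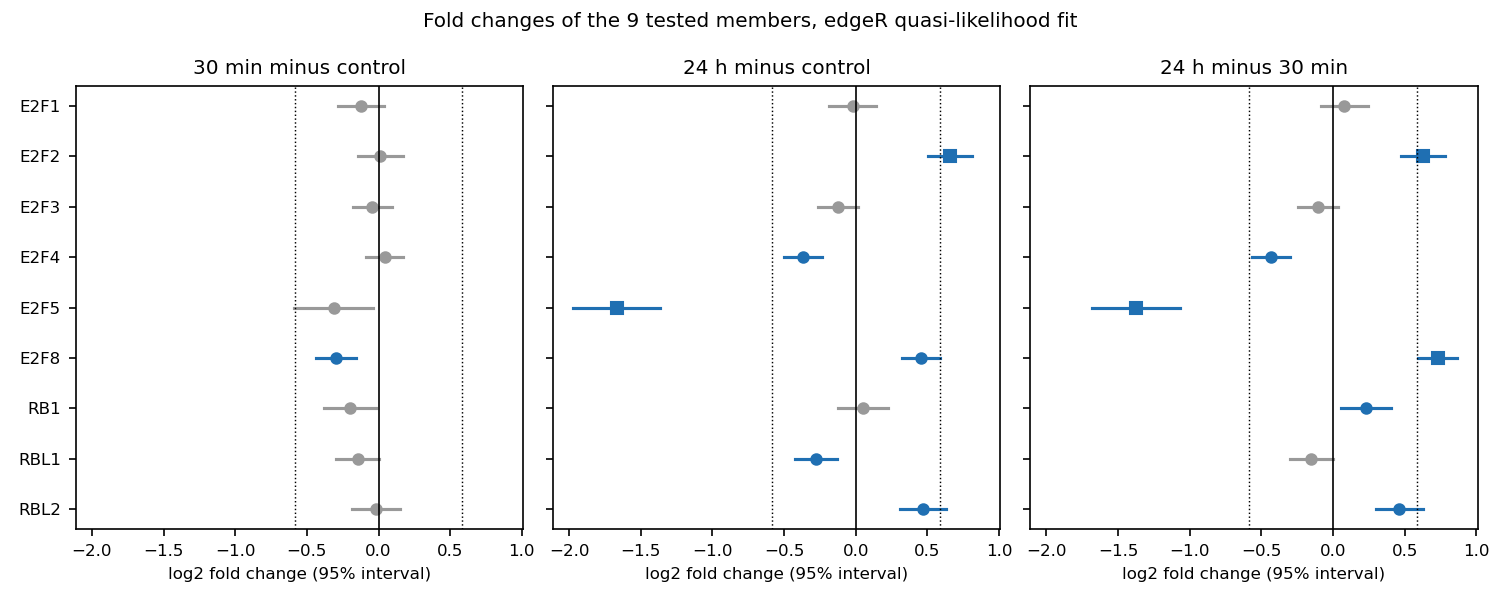
Log2 fold change of the 9 tested members at 30 min, at 24 h and at 24 h against 30 min, with 95% intervals from edgeR; squares mark called members, circles the others, blue an adjusted p below 0.05 and grey the rest, and dotted lines mark 1.5-fold. At 24 h E2F2 at 0.66 and E2F5 at -1.67 are beyond the dotted lines.

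Since FPKM is per length, levels of members can also be set against each other within a library. The size of such a ratio depends on the gene length used for each member. The ratio of RBL2 to RBL1 was 0.649 ± 0.057 in the control, 0.714 ± 0.039 at 30 min and 1.09 ± 0.073 at 24 h (SD, n = 3). It lay between 1.01 and 1.14 in the 24 h libraries and between 0.589 and 0.702 in the controls, so the order of the pair turned. The ratio of E2F2 to E2F1 was 0.351 ± 0.064 in the control, 0.380 ± 0.0038 at 30 min and 0.556 ± 0.016 at 24 h. The ratio of E2F8 to E2F1 was 0.920 ± 0.155, 0.806 ± 0.071 and 1.27 ± 0.080 in the same order. For each of these 3 ratios at 24 h, the two-sided exact permutation test gave p = 0.1, the smallest that 3 against 3 libraries allow, so none could reach 0.05. Each ratio sets a member that rose at 24 h over one that fell or did not pass, in the same libraries. The permutation test therefore adds no support to the differences above, and the ratios describe them. At 30 min the exact permutation p was 0.2 for RBL2 to RBL1, 0.7 for E2F2 to E2F1 and 0.4 for E2F8 to E2F1.

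The summed level of the 3 pocket protein genes was 40.9 ± 4.22 FPKM in the control, 36.9 ± 3.19 at 30 min and 44.03 ± 1.85 at 24 h (n = 3). Within it, the share of RBL2 was 22.4% ± 1.18 in the control and 29.8% ± 1.17 at 24 h. The share of RBL1 was 34.6% ± 1.91 and 27.3% ± 1.24. That of RB1 was 43.0% ± 1.80 and 42.9% ± 1.42, which overlapped.

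**Figure D3:**
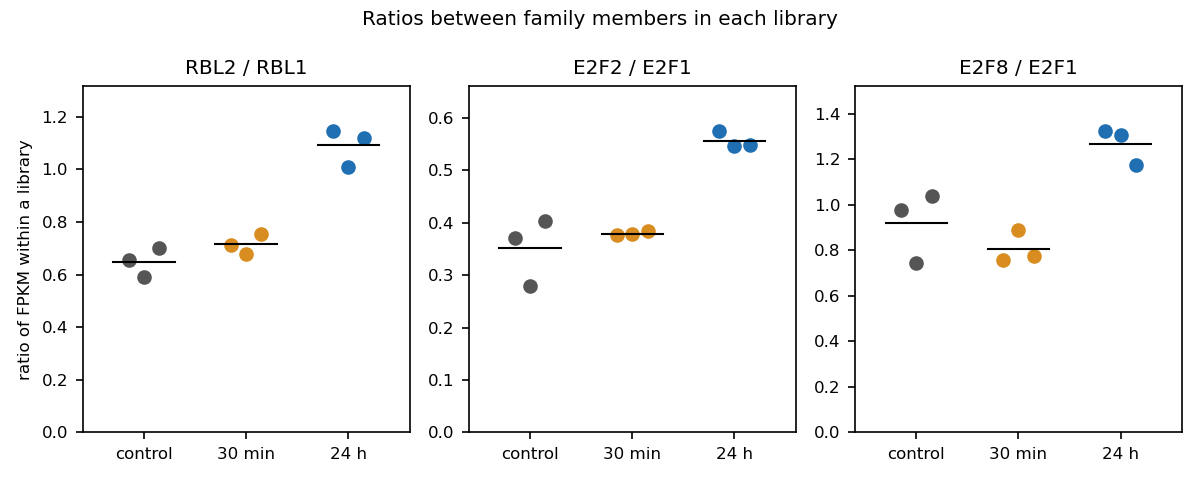
Ratios of FPKM of 2 members within each library, by group; points are single libraries and bars are the means of 3. The ratio of RBL2 to RBL1 lies between 0.589 and 0.702 in the control libraries and between 1.01 and 1.14 in the 24 h libraries.

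After 30 min, 0 of the 9 tested members were called by edgeR, against 0.639% of all genes in either direction, and 3 (E2F5, E2F8 and RB1) had an unadjusted p below 0.05, against 11.1% of all genes. E2F8 alone passed the adjusted p, that is 1 of 9 members against 1.62% of all genes, and it alone had groups that did not overlap, against 13.8% of all genes. E2F8 measured 15.08, 17 and 16.22 FPKM at 30 min, all below the control libraries given above. The log2 difference was -0.30 (SE 0.07, edgeR adjusted p 0.022). Under the alternatives this adjusted p ranged from 0.0036 to 0.217 and was above 0.05 with limma on log2(FPKM + 0.1) or log2(FPKM + 1) (both 0.075) and with only the 6 libraries compared (0.094). It was also above 0.05 in edgeR without control replicate 1 (adjusted p 0.217) or 3 (0.123), 24 h replicate 1 (0.071) or 30 min replicate 1 (0.144).

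The other members did not pass the test at 30 min. E2F5 measured 1.46, 1.79 and 1.3 FPKM, overlapping the controls, with a log2 difference of -0.31 (edgeR adjusted p 0.339). RB1 measured 15.14, 17.09 and 13.44 FPKM, with a log2 difference of -0.20 (edgeR adjusted p 0.371). The remaining 6 lay between -0.15 (RBL1) and 0.04 (E2F4) on the log2 scale.

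The direct comparison of 24 h with 30 min tests whether the members' differences from the shared controls changed with time. Here 4 of 9 members were higher (E2F2, E2F8, RB1, RBL2), against 32.5% of all genes, and 2 were lower (E2F4, E2F5), against 32.6%. Called were 2 higher, E2F2 and E2F8, against 15.4% of all genes, and 1 lower, E2F5, against 11.5%. Of all genes called in this comparison 42.8% were lower, and 32.6% when scaled by library totals alone, a scaling under which the members' call counts were the same.

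E2F8 showed the largest rise of the family between the times, from 16.1 ± 0.966 to 28.25 ± 0.763 FPKM (n = 3), with a log2 difference of 0.73 (SE 0.07, edgeR adjusted p 4.0e-09). E2F2 measured 7.5, 7.27 and 8.02 FPKM at 30 min and was 0.63 higher at 24 h on the log2 scale (edgeR adjusted p 2.1e-07). RBL2 measured 8.67, 9.4 and 8.92 FPKM at 30 min and was 0.46 higher at 24 h (edgeR adjusted p 2.3e-05). For these members the 30 min and 24 h libraries did not overlap.

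E2F5 was lower at 24 h than at 30 min by a log2 difference of -1.38 (edgeR adjusted p 6.7e-08), though without 30 min replicate 1 or 2 its mean fell under the filter and it was not tested. E2F4 measured 41.45, 39.73 and 45.95 FPKM at 30 min, and its log2 difference was -0.43 (edgeR adjusted p 4.5e-06). RB1 was 0.23 higher at 24 h (edgeR adjusted p 0.021), a result lost without 24 h replicate 1 (0.051) or 30 min replicate 3 (0.133). E2F1, at 19.95, 19.15 and 20.91 FPKM at 30 min, lay below each of its 24 h libraries, but the difference of 0.08 did not pass the test (edgeR adjusted p 0.392). RBL1 (-0.15, adjusted p 0.070) and E2F3 (-0.10, adjusted p 0.182) did not pass in the same edgeR fit, though RBL1 passed with no FPKM filter (0.015) or without 30 min replicate 3 (0.019).

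The partners of the family were read from 4 lists of pathway genes, described by counts at 24 h beside the shares of all genes given above. The lists were chosen with earlier results of these data known, so their counts are a description and not a test. Of 11 DP and MuvB genes tested, 5 fell, against 31.8% of all genes, and 1 rose, against 31.5%. Their median log2 difference was -0.13. Called were 2 lower, against 11.2% of all genes, and 1 higher, against 15.1%. Called lower were TFDP1 and TFDP2, which code for the DP partners of E2F1 to E2F6. TFDP1 went from 185 to 122 FPKM (log2 -0.65, edgeR adjusted p 2.2e-10) and TFDP2 from 2.65 to 1.75 FPKM (log2 -0.65, edgeR adjusted p 7.3e-07). Called higher was MYBL1, a MYB factor that can join MuvB, with a log2 difference of 0.73 (edgeR adjusted p 0.00019). With limma on log2(FPKM + 1) there was 1 called lower and 0 called higher.

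Among 18 tested genes for the kinases that act on pocket proteins, their inhibitors and related factors, 7 fell and 8 rose. Shares of all genes were 31.8% and 31.5%. The median log2 difference was -0.03. Called were 2 lower, against 11.2% of all genes, and 4 higher, against 15.1%. Called lower were CCND2, a D-type cyclin, at -1.68, and SKP2, part of the ubiquitin ligase that removes p27, at -0.63 on the log2 scale, of which limma on log2(FPKM + 0.1) or log2(FPKM + 1) called 1. Called higher were 4 inhibitors of cyclin-dependent kinases. CDKN1A (p21) went from 1.18 to 7.19 FPKM, a log2 difference of 2.57 (edgeR adjusted p 2.6e-12). CDKN2B (p15) differed by 1.77, and passed the filter only through its 24 h libraries (mean 2.25 FPKM against 0.637 in the control). CDKN2C (p18) differed by 1.09 and CDKN2D (p19), named after its values were seen, by 1.06 on the log2 scale.

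CDKN1B (p27), also named after its values were seen, was the one gene of the 4 lists that passed the adjusted p at 30 min, where it fell. The lists held 10, 17, 37 and 32 genes tested at 30 min, and 1.62% of all genes passed the same cut. A single gene is therefore no result about the lists. The mean level of CDKN1B was 30.8 FPKM in the control and 21.5 at 30 min (log2 -0.51, edgeR adjusted p 0.0034). At 24 h it was 45.2 FPKM and had risen from the control by 0.50 on the log2 scale (edgeR adjusted p 3.9e-05).

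Of 37 tested G1/S genes known as E2F targets, 30 fell at 24 h, against 31.8% of all genes, and 2 rose, against 31.5%. Their median log2 difference was -0.39. Called were 6 lower, against 11.2% of all genes, and 0 higher, against 15.1%. The largest differences were those of MCM10 (-0.95) and CDC25A (-0.77), which act in replication start and S phase entry, and of UNG (-0.72), a DNA repair glycosylase. The 2 that rose, named after their values were seen, were RRM2 (0.39) and TK1 (0.26), both of nucleotide synthesis. An E2F site was in a promoter window of 16 of the 31 G1/S genes with a window.

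Of 32 G2/M genes known as MuvB targets, 22 fell and 3 rose, with a median of -0.26. Shares of all genes were 31.8% and 31.5%. Called lower were CCNB1 (log2 -0.70) and PLK1 (-0.69), a cyclin and a kinase of mitotic entry. Called higher was CDC25C (0.62), a phosphatase of the same step. That is 2 of 32 lower, against 11.2% of all genes, and 1 of 32 higher, against 15.1%, so calls were not frequent in this list. CDC25C was not called without control replicate 1, under limma at a pseudocount of 1, with no FPKM filter or with a minimum of 5 FPKM. The genes called lower numbered 7 with no FPKM filter, 5 without control replicate 2 and 4 without control replicate 3. The CHR element was in a window of 18 of 27. Of the 4 lists at 30 min, 0 genes were called by edgeR, against 0.639% of all genes in either direction. At so low a share, 0 calls is no result about the lists. An unadjusted edgeR p below 0.05 was reached by 2 DP and MuvB, 2 kinase and inhibitor, 1 G1/S and 4 G2/M genes. Of all genes, 11.1% passed that cut.

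**Figure D4:**
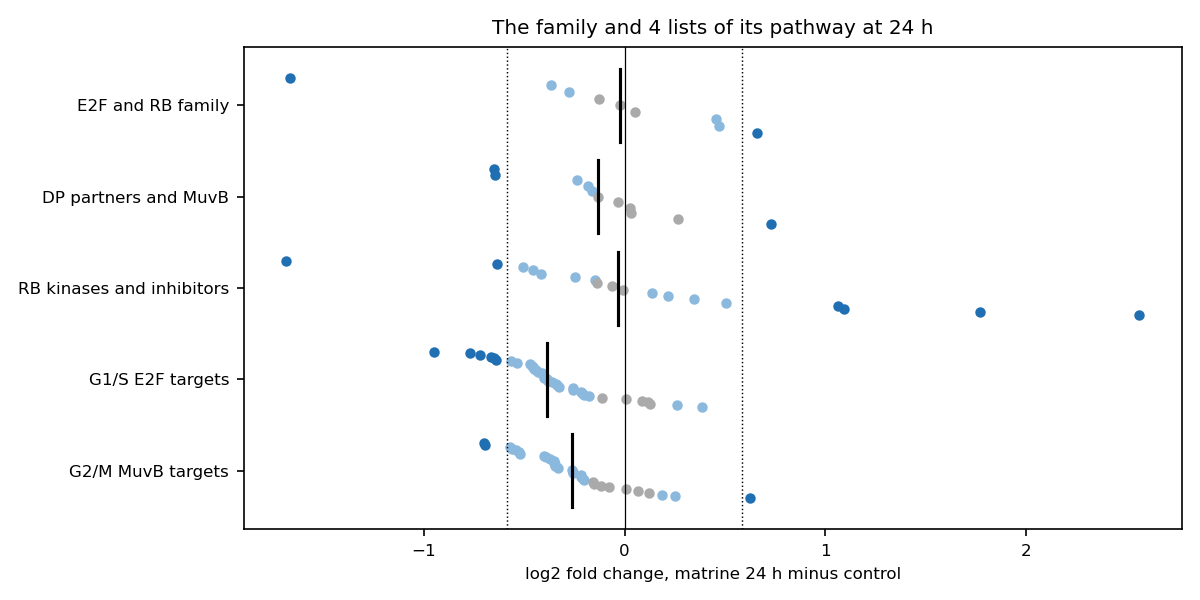
Log2 fold change at 24 h of each tested member and of each tested gene of the 4 pathway lists; dark blue points were called, light blue ones had an adjusted p below 0.05 only, grey ones neither, black bars are medians and dotted lines mark 1.5-fold. The median is -0.02 for the members and -0.39 for the G1/S genes.

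The genes with the most similar pattern to the called members were found as the smallest root mean square difference of log2 CPM over the 9 libraries, among 12035 genes, each centred on its mean. For E2F5 these were MIR17HG, the host gene of a microRNA cluster (0.098), and LYAR and CHML (both 0.144). MIR17HG differed from control by -0.30 at 30 min and by -1.61 at 24 h on the log2 scale. For E2F2 they were BSDC1 (0.051), PIAS3 (0.052) and CNNM2 (0.053). The measure describes likeness of level in these libraries and nothing more.

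Some members share exonic bases with neighbouring genes. In GENCODE release 44 (GRCh38), E2F5 (ENSG00000133740, chromosome 8, 85177154 to 85217158, plus strand) shares 997 of its 5999 exonic bases with RBIS on the opposite strand. It shares 133 with ENSG00000254208, also on the opposite strand and not analysed here. RBIS went from 16.2 to 12.7 FPKM at 24 h (log2 -0.40, edgeR adjusted p 0.0022), a smaller difference than that of E2F5. RBL2 (ENSG00000103479, chromosome 16, 53433977 to 53491648, plus strand) shares 609 of 8110 exonic bases with AKTIP. The level of AKTIP was 0.607 FPKM in the control and 0.743 at 24 h, too low to be tested. RBL2 also shares 721 bases with ENSG00000279344, which is absent from the deposited gene identifiers and so has no counts of its own. The strand setting of the counting is not given in the sources used here, so reads of such pairs cannot be told apart, and their part in these results was not tested.

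Of the other members that rose or fell at 24 h, E2F2 (ENSG00000007968) lies on chromosome 1 at 23506438 to 23531233 (minus strand) with no exon shared in that annotation. E2F8 (ENSG00000129173) lies on chromosome 11 at 19224063 to 19241620 (minus strand), with 7 exonic bases shared with CSRP3-AS1. E2F4 (ENSG00000205250), on chromosome 16 at 67192155 to 67198918 (plus strand), shares none, and RBL1 (ENSG00000080839), on chromosome 20 at 36996349 to 37095997 (minus strand), shares 213 bases with an unnamed antisense gene.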

How the data were processed

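RNA-seq of U937 cells was analysed in 9 libraries grouped by GEO's labels: 3 of control cells, 3 after 30 min of matrine at 0.8 mg/ml and 3 after 24 h. The authors deposited for each gene the raw count and the FPKM value in each library, and both were used as deposited. The submitters' processing notes name cutadapt 1.9.1, HISAT2 2.0.1, HTSeq 0.6.1 and GRCh37, while the methods name hg38. Coordinates printed here come from GENCODE release 44 and RefSeq on GRCh38, not from the table, and 51996 of the 57905 identifiers matched a symbol. The annotation, strand setting and treatment of multi-mapping reads are not given in the sources used here.

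Counts were tested with edgeR 4.0.16 (R 4.3.3), with TMM normalization and quasi-likelihood tests in a single fit of the 9 libraries. Genes tested averaged more than 1 FPKM in the 6 libraries compared. Calls required p below 0.05 after Benjamini-Hochberg adjustment together with 1.5-fold or more. Each standard error is the log2 difference divided by the square root of its F statistic. Totals of 17314931 to 21930018 counts set the precision, and limits from 3 counts cover counting error only. Alternatives used limma 3.58.1, DESeq2 1.42.0, other scalings, filters and thresholds, a replicate block and each library left out.

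The members and gene lists were chosen with earlier results of these data known. Genes named were the members, MYC and the 12 markers of the line. Of each pathway list, the 3 largest called differences in each direction at 24 h and every gene called at 30 min were named. The 3 genes most like each called member were named too. Others are marked where they appear. A search of protein sequences was planned and not run, since no protein table was used here. HL-60 and K562 libraries were not analysed here.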

Additional observations from a re-analysis of the deposited data

Results flagged for a closer look

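For 6 members the difference from control at 24 h was not the difference from control at 30 min, by the test of 24 h against 30 min (edgeR's quasi-likelihood test, adjusted p below 0.05), in which the shared controls cancel. Higher at 24 h than at 30 min on the log2 scale were E2F8 by 0.73, E2F2 by 0.63, RBL2 by 0.46 and RB1 by 0.23. Lower were E2F5, with a log2 difference of -1.38, and E2F4, with -0.43. Of these, E2F8 was lower than control at 30 min (-0.30) and higher at 24 h (0.45). Its fall at 30 min passed the adjusted p in 14 of 21 alternatives. The RB1 difference between the times passed in 19 of 21. The alternatives that changed only the fold change limit left the adjusted p as it was. They are therefore counted among these passes by construction. Groups held 3 libraries, so single libraries were not tested as outliers.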

How the results depend on the processing

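With a fold change of at least 2, 0 members were called higher at 24 h and 0 at 24 h against 30 min. Called lists then held 0 higher and 0 lower DP and MuvB genes, 0 lower G1/S genes, 0 higher and 0 lower G2/M genes and 1 lower kinase or inhibitor gene. With no fold limit, the members were 3 higher and 3 lower at 24 h, 4 higher and 2 lower at 24 h against 30 min, and 1 lower at 30 min, beside 5 lower DP and MuvB genes, 2 higher and 30 lower G1/S genes, 3 higher and 22 lower G2/M genes, and 8 higher and 7 lower kinase and inhibitor genes. With a mean FPKM above 5, E2F5 was not tested, so 0 members were called lower at 24 h or at 24 h against 30 min. The DP and MuvB genes then were 0 higher and 1 lower, the G2/M genes 0 higher and the kinase and inhibitor genes 2 higher and 0 lower. With no FPKM filter, 1 member was called higher at 24 h against 30 min, as E2F2 came to 0.57, with 0 higher and 7 lower G2/M genes. With limma on log2(FPKM + 0.1), 1 DP and MuvB gene and 1 kinase or inhibitor gene were called lower. With limma on log2(FPKM + 1) these were again 1 and 1, with 0 higher DP and MuvB genes and 0 higher G2/M genes.

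With each library left out, members called higher at 24 h numbered 0 to 1 (0 without control replicate 2) and members called lower at 24 h against 30 min 0 to 1 (0 without 30 min replicate 1 or 2). G2/M genes called higher at 24 h numbered 0 to 1 (0 without control replicate 1) and lower 2 to 5 (5 without control replicate 2, 4 without control replicate 3).

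Signs that turned were those of differences near 0 that did not pass the test. E2F1 at 24 h was 0.026 with library totals alone, 0.030 and 0.029 with limma at pseudocounts of 0.1 and 1, and 0.032 with a mean FPKM above 5. E2F2 at 30 min was -0.0015 with library totals alone, and RB1 at 24 h was -0.016 with no FPKM filter. With each library left out, E2F1 at 24 h ranged from -0.095 to 0.047, RB1 at 24 h from -0.064 to 0.14, E2F2 at 30 min from -0.058 to 0.069, E2F4 at 30 min from -0.014 to 0.11 and RBL2 at 30 min from -0.11 to 0.047. The cause of these changes was not tested beyond the construction of each alternative. The remaining 252 values of the call counts stayed within 1.5 times.

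Samples of the same replicate number correlated in their deviations from the group means at -0.113 to 0.066 (9 pairs), and 5 of 18 correlated best with their own number, so the numbers were not read as pairs. With the replicate block, the calls at 24 h were 1343 lower and 1815 higher genes, against 1344 and 1820, and the block changed no call of a member. Depth bore most on E2F5, whose 73 to 80 counts per library at 24 h went with a standard error of 0.15 on the log2 scale.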

Other observations

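E2F7 had 0 counts in every library, and its nearest protein-coding genes in RefSeq order differed among themselves. ZDHHC17, on one side, had a mean of 2.77 FPKM, with CSRP2 between it and E2F7 at 1 to 5 counts per library. On the other side NAV3 had 0 to 13 counts, SYT1 and PAWR had 0 counts in every library, and PPP1R12A had a mean of 5.14 FPKM. A zero is listed there for 3 genes of the stretch, E2F7, SYT1 and PAWR.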
